A study of Mus musculus with 40 samples.

Results

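Pro-B cells lacking Tet2 were compared with wild-type pro-B cells at 193623 tiles of 100 bp, of the 971845 tiles in the methylation table of the series. The members were chosen by position and completeness alone, as tiles of autosomes measured in each of the 6 libraries compared. Reduced representation bisulfite sequencing (RRBS) reads the methylation of cytosines in CpG-rich restriction fragments. The Tet2KO group held libraries 4, 5 and 6, all from female C57/bl mice, aged 8, 6 and 6 weeks. The wild-type (WT) group held libraries 1 and 2 from males aged 8 and 6 weeks and library 3 from a female aged 6 weeks. The labels describe the knockout as inducible and driven by the Mb1 promoter. They do not say whether WT mice carried the driver, whether each library came from its own mouse, or how complete the deletion was, so a p-value here measures the spread between these libraries. Libraries from follicular B cells of the same genotypes were used as a second measurement: 16, 17 and 18 from Tet2KO and 13, 14 and 15 from WT mice. They took no part in the choice of tiles, except in the fit of all 24 libraries and for tiles changed in both stages. They match the pro-B libraries one by one in sex and age, so the same excess of males among WT mice recurs in them. The labels do not say whether matching libraries came from the same mice. Tet3KO libraries and libraries lacking both Tet2 and Tet3 (DKO) entered some fits and comparisons. Pro-B Tet3KO libraries 7, 8 and 9 came from a male, a female and a male, all aged 7 weeks. Pro-B DKO libraries 10 and 11 came from males aged 7 weeks and library 12 from a female aged 6 weeks. Follicular Tet3KO libraries 19 to 21 and DKO libraries 22 to 24 had the same sexes and ages in that order. No WT or Tet2KO mouse was aged 7 weeks.

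Tet2 is a dioxygenase that oxidises 5-methylcytosine to 5-hydroxymethylcytosine and further products, a route by which methylation is removed actively or diluted at replication. Bisulfite treatment does not separate 5-methylcytosine from 5-hydroxymethylcytosine, so the levels given here hold both. Pro-B cells are an early stage of the B lineage in which immunoglobulin heavy-chain genes are rearranged, and follicular B cells are mature resting cells. Mb1, also named Cd79a, encodes a part of the B-cell receptor, and its promoter is active from the first committed B-lineage cells. The table holds methylation by position and no expression, and no annotation of its mouse build (mm9) was at hand. Gene names, promoter and B-lineage gene lists, cell type markers and the Tet2 locus itself were therefore not analysed here.

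Read depth could not be read from the table. As a stand-in, the count of tiles measured was 532170, 631415 and 402283 in the Tet2KO libraries 4, 5 and 6 and 314437, 419928 and 425669 in the WT libraries 1, 2 and 3. Values of exactly 0 made up 36.6, 35.1 and 39.4% of member tiles in Tet2KO libraries, against 44.7, 43.4 and 41.5% in WT libraries. Values of exactly 100% made up 10.9, 8.72 and 16.1% of member tiles in Tet2KO libraries, against 20.3, 16.1 and 15.7% in WT libraries. Both extremes were more frequent in the WT group as a whole, and the groups did not overlap in the share at 0. On densely tiled parts of the X chromosome, the mean level was 33.8 to 41.5% in the 3 Tet2KO libraries and 34.1% in the female WT library, against 21.4 and 22% in the male WT libraries, which fits the labelled sexes. The spread between replicates of a tile, as the root of the mean variance, was 6.29 percentage points in pro-B Tet2KO and 8.26 in pro-B WT, against 4.12 in follicular Tet2KO and 3.82 in follicular WT libraries.

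Methylation averaged over all members differed by about 1 percentage point, with overlapping groups. The Tet2KO libraries 4, 5 and 6 had 39.8, 40.3 and 39.0% and the WT libraries 1, 2 and 3 had 38.2, 39.0 and 38.8%. The means were 39.7% ± 0.649 in Tet2KO and 38.7% ± 0.418 in WT (SD, n = 3 each), a difference of 1.03 points (SE 0.446). A two-sided exact permutation test gave p = 0.2, and with 3 against 3 libraries no p under 0.1 is possible. Tet2KO library 6 lay just below WT library 2, so the groups overlapped. On the 128596 members with a value in 23 libraries the difference was 0.842 points and on the 16026 with a value in all 24 it was 0.488 points, both without overlap (exact p = 0.1). Single tiles were higher in Tet2KO at 44.3% of members and lower at 33.5%, and 20.2% were at 0 in all 6 libraries.

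The difference was spread unequally over levels of methylation. Tiles were classed by their mean in the 3 follicular WT libraries, which take no part in the comparison and gave a class to 188683 members. The 22269 intermediate tiles, at 20 to 80%, had 52.2, 54.6 and 48.0% in Tet2KO libraries 4, 5 and 6, against 44.9, 49.0 and 47.2% in WT libraries 1, 2 and 3. Their means were 51.6% ± 3.34 in Tet2KO and 47.1% ± 2.05 in WT (SD, n = 3 each), a difference of 4.54 points (SE 2.26, two-sided exact permutation p = 0.2). The 2 highest libraries were both Tet2KO, and library 6 lay inside the WT range. The 100597 low tiles, under 20%, had 2.24, 2.29 and 2.00% in Tet2KO and 1.78, 1.90 and 1.87% in WT libraries, with no overlap and a difference of 0.320 points (SE 0.0974, p = 0.1 by the same exact test). The 65817 high tiles, over 80%, had 92.6, 93.3 and 92.2% in Tet2KO and 91.3, 92.0 and 92.0% in WT libraries, a difference of 0.936 points (SE 0.390, exact p = 0.1), again with no overlap.

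**Figure D1:**
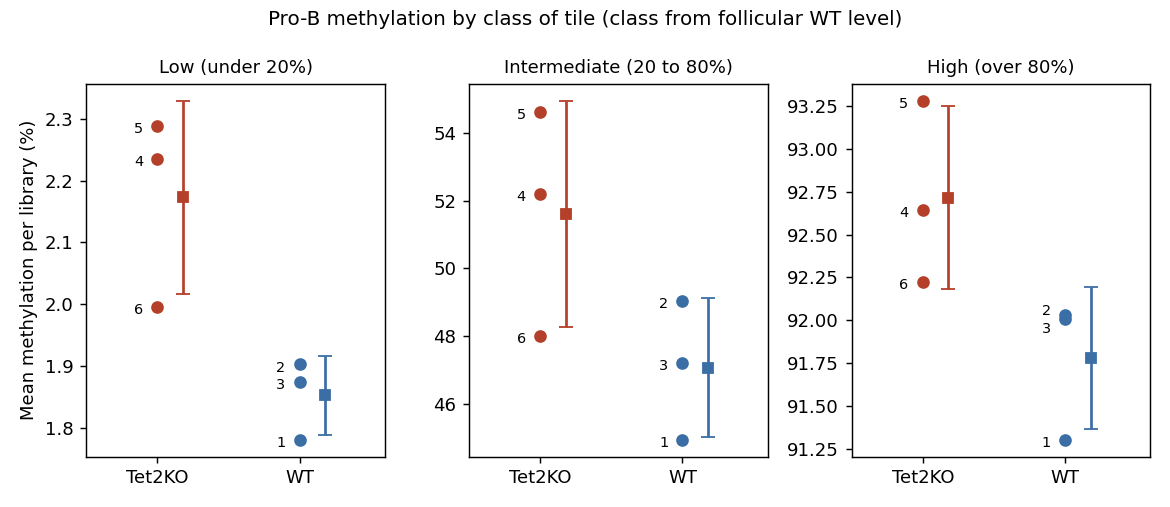
Mean methylation (%) of each pro-B library over tiles of low, intermediate and high level, with Tet2KO left of WT; circles are libraries with their number and squares with bars are the mean and SD of 3 libraries, and each panel has its own axis range. The groups are apart in the low and high classes by less than 1 point, and in the intermediate class Tet2KO library 6 at 48.0% lies inside the WT range of 44.9 to 49.0%.

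In the intermediate class the level of these 6 libraries moved together with the number of tiles. The 2 libraries with the most tiles, Tet2KO libraries 5 and 4, had the highest intermediate levels, and WT library 1, with the fewest, had the lowest. Tet2KO library 6, with 402283 tiles, had 48.0%, against 47.2 and 49.0% in WT libraries 3 and 2, with 425669 and 419928 tiles. In the low and high classes, however, library 6 lay above WT libraries 2 and 3, with 2.00% against 1.90 and 1.87% and with 92.2% against 92.0 and 92.0%. The other pro-B libraries were compared on intermediate tiles with values in 23 libraries, where they followed the number of tiles only in part. DKO library 10, with 556257 tiles, had the highest pro-B level, 55.6%. DKO libraries 11 and 12, with 447477 and 273728 tiles, had 46.6 and 46.8%. Tet3KO libraries 7 and 9, with 395044 and 318756 tiles, had 43.5 and 45.7%. The part of depth in the difference was not tested. Within female libraries the intermediate difference was 4.40 points, against 1 WT library. Within the 6-week libraries it was 3.18 points with 2 libraries a group, and within the 8-week libraries 7.26 points with 1 library a group.

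**Figure D2:**
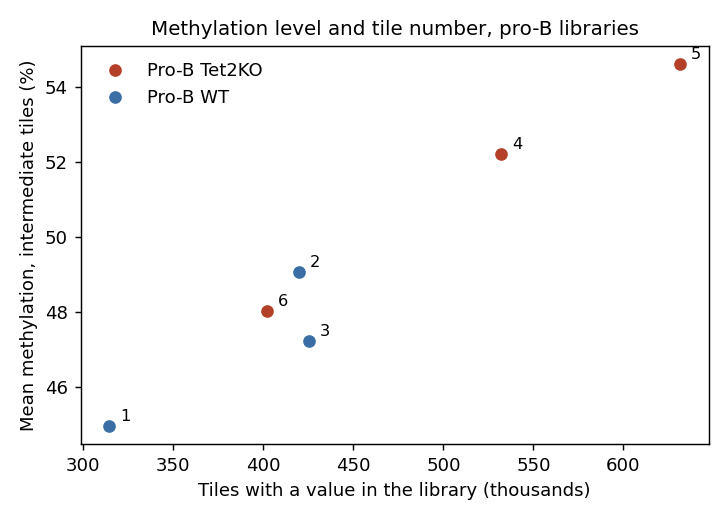
Mean methylation (%) over intermediate tiles against the number of tiles with a value (in units of 1000) for the 3 pro-B Tet2KO and the 3 pro-B WT libraries, each a point with its library number. The level is highest in Tet2KO library 5, with 631415 tiles, and lowest in WT library 1, with 314437, and the remaining Tet2KO library 6 sits between WT libraries 2 and 3.

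Local tile density, counted as the other tiles of the table that start within 500 bp, was used as a measure of position that takes no methylation value. Isolated tiles, with at most 1 neighbour, stood at 76.5% ± 1.14 in Tet2KO and 74.9% ± 0.595 in WT (SD, n = 3 each; 18537 tiles), a difference of 1.63 points (SE 0.744, two-sided exact permutation p = 0.2). Dense tiles, with 6 or more neighbours, as is usual in CpG islands, stood at 17.5% ± 0.333 in Tet2KO and 16.9% ± 0.222 in WT (90073 tiles), a difference of 0.567 points (SE 0.231, exact p = 0.1). The groups overlapped at isolated tiles and did not at dense tiles. Among intermediate tiles the difference was 4.28 points where isolated, 4.57 at middle density and 4.62 where dense, each with overlapping groups and an exact p of 0.2. The mean difference was above 0 on each of the 19 autosomes, between 0.818 points on chromosome 3 and 1.28 points on chromosome 8.

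Few single tiles passed the test across the table. Limma with Benjamini-Hochberg adjustment over 193623 tiles, fitted to the 12 pro-B libraries, called 2 tiles higher (0.00103% of tiles) and 2 lower (0.00103%) in Tet2KO at an adjusted p under 0.05 and a difference of at least 20 points. An unadjusted p under 0.05 was reached by 3.50% of tiles, where the tiles at 0 in all 6 libraries could hardly pass. A fit of all 24 libraries, which takes its spread also from the less variable follicular libraries, called 52 higher (0.0269%) and 9 lower (0.00465%), and 6.78% had p under 0.05 before adjustment. With sex as a covariate, which in these groups is tied to genotype, 371 of the 193623 tiles were called higher and 52 lower. In that fit 5.32% had p under 0.05 before adjustment. With age as a covariate, or with each library centred on the common mean, none was called in either direction.

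On chromosome 17, from 8069101 to 8069200 (mm9, as are all positions here), methylation was 90.3, 86.0 and 86.7% in Tet2KO libraries 4, 5 and 6, against 41.7, 44.0 and 44.0% in WT libraries 1, 2 and 3. The difference was 44.5 points (SE 2.21, limma adjusted p = 0.0205). In follicular cells the same tile had 76.0, 88.0 and 81.1% in Tet2KO and 81.5, 83.3 and 63.3% in WT libraries. The high value of pro-B Tet2KO was thus also the usual follicular level in both genotypes, and the WT pro-B libraries were the ones that stood apart. On chromosome 10, from 39933301 to 39933400, all 3 Tet2KO libraries were at 100%, against 80, 76.5 and 81.8% in WT libraries, a difference of 20.6 points (SE 1.29, limma adjusted p = 0.0185). The follicular difference there was -5.05 points, with overlapping groups.

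Both tiles called lower had WT values of 100% in all 3 libraries. On chromosome 13, from 3944001 to 3944100, Tet2KO libraries had 71.4, 71.7 and 67.5%, a difference of -29.8 points (SE 1.52, limma adjusted p = 0.0206). On chromosome 5, from 143427001 to 143427100, Tet2KO libraries had 80.6, 81.7 and 76.0%, a difference of -20.6 points (SE 1.42, limma adjusted p = 0.0252). Follicular groups overlapped at both, with differences of 0.193 and 0.164 points. Each of the 4 tiles lost its call in the limma fit of only the 6 compared libraries (adjusted p 0.0584 to 0.161), with age as a covariate (0.101 to 0.203) and with centred libraries (0.221 to 0.499). Both tiles called lower also lost it without WT library 2 (0.0503) or WT library 3 (0.0525), and the tile on chromosome 5 fell short of 20 points without Tet2KO library 6 (-18.8 points). The tile on chromosome 10 did so without WT library 2 (19.1 points). Over the 2 tiles called higher, the follicular difference was 0.295 points, and it turned to -0.153 points when libraries were centred.

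Because single calls were few, tiles were also sorted by a rule without a test, added after the data had been seen. Raised tiles had all 3 Tet2KO libraries above all 3 WT libraries and a difference of at least 20 points, and lowered tiles the reverse. There were 1942 raised tiles (1% of members) and 753 lowered tiles (0.389%). Without the demand that the groups be apart, 6085 tiles (3.14%) were higher and 2446 (1.26%) lower by 20 points or more, so higher tiles were in the majority by both rules. Without the demand for 20 points, the groups were apart with Tet2KO above WT at 3.62% of members and with Tet2KO below WT at 2.42%. The median difference was 30.5 points over raised and -27.3 points over lowered tiles, values that the rule itself sets.

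Raised tiles made up 5.61% of intermediate, 0.653% of high and 0.213% of low members. Lowered tiles made up 1.68% of intermediate, 0.438% of high and 0.0616% of low members. Each autosome held more raised than lowered tiles, and the raised share ran from 0.654% on chromosome 13 to 1.33% on chromosome 17. Joined where they started within 500 bp, raised tiles formed 1805 regions, of which 1680 were single tiles and 11 held 3 or more. Lowered tiles formed 743 regions, of which 735 were single tiles and 1 held 3 or more. At raised tiles 21.2% of pro-B WT values were exactly 0 and 13.4% of pro-B Tet2KO values exactly 100%. At lowered tiles 43.8% of pro-B WT values were exactly 100% and 8.76% of Tet2KO values exactly 0. In follicular libraries each of these extremes made up 1.08 to 4.94% of the values at the same tiles, and the part of shallow coverage in the choice of tiles was not tested.

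The follicular libraries took no part in this choice, so the direction can be looked for in them, with the same imbalance of sexes. Over the 1833 raised tiles with all 6 follicular values, the follicular Tet2KO libraries 16, 17 and 18 had 59.7, 59.0 and 58.6%, against 56.5, 55.4 and 56.3% in the follicular WT libraries 13, 14 and 15. The means were 59.1% ± 0.572 in Tet2KO and 56.0% ± 0.589 in WT (SD, n = 3 each), 3.05 points apart (SE 0.474). Each Tet2KO library was above each WT library, and 62.5% of the tiles, 1146 of 1833, had a follicular difference above 0. That share was 48.2% over all members and 58.5% over members with a mean of 20 to 80% over the 6 pro-B libraries. The gap was far smaller than the 33.1 points by which the same tiles differed in pro-B cells. Over the 700 lowered tiles the follicular means were 66.1% ± 0.208 in Tet2KO and 65.4% ± 0.789 in WT, a difference of 0.699 points (SE 0.471) in the direction opposite to pro-B cells, with overlapping groups.

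All members differed in the same direction in follicular cells, by 0.448 points (SE 0.0923; 40.3% ± 0.0123 in Tet2KO and 39.9% ± 0.159 in WT, n = 3 each, two-sided exact permutation p = 0.1). The follicular difference at raised tiles exceeded that of all members by 2.60 points (SE 0.418) and that of lowered tiles by 2.35 points (SE 0.636). Raised tiles are mostly of intermediate level, where differences were larger in general. Among the 21089 members with a mean of 20 to 80% over the 6 pro-B libraries the follicular difference was 1.84 points (SE 0.391), and the 1375 raised tiles among them exceeded the others by 1.70 points (SE 0.522). For lowered tiles of that level the excess was -0.662 points (SE 0.459), with overlapping libraries. A test of the difference between the stages, over 184710 tiles, found 1 tile (0.000541%) with a lower effect of Tet2KO in pro-B than in follicular cells and 0 with a higher one by limma (on logit values 6 and 3). Against the female WT library 15 alone, the Tet2KO mean was 2.83 points higher at raised tiles, and against the 2 male WT libraries 3.16 points higher. In the other follicular knockouts, females exceeded males at raised tiles by 2.37 points in Tet3KO and 1.57 points in DKO, against 1.51 and 1.05 points at all members of 20 to 80%. In follicular WT libraries females minus males gave 0.329 points at raised tiles and -0.118 points at all members of 20 to 80%. Each of these values rests on 1 female and 2 male libraries, and the part of sex in the difference was not tested. No p is given for the sets of raised and lowered tiles, which were formed after values had been seen.

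Members were also split by the size of the pro-B difference. The follicular difference was 0.425 points where pro-B Tet2KO was higher by up to 10 points, 1.33 points for 10 to 20, 2.52 points (SE 0.454) for 20 to 40 and 5.03 points (SE 0.840) for 40 to 100. Where pro-B Tet2KO was lower it was 0.331 points for up to 10 and 0.654 (SE 0.219) for 10 to 20. For losses of 20 to 40 it was 0.730 (SE 0.404) and for 40 to 100 it was 1.33 points (SE 0.810), both with overlapping groups. The follicular difference thus rose with the size of the pro-B gain. For losses the rise of the means was smaller and, from 10 points on, lay within these SEs. Losses in pro-B cells went with no follicular loss in any class. Levels differed between classes too. The follicular WT mean was 40.3% for gains of up to 10 points and 62.3% for gains of 40 to 100. For losses of the same sizes it was 51.8 and 59.2%. The class of the largest losses held 136 tiles and that of the largest gains 683.

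**Figure D3:**
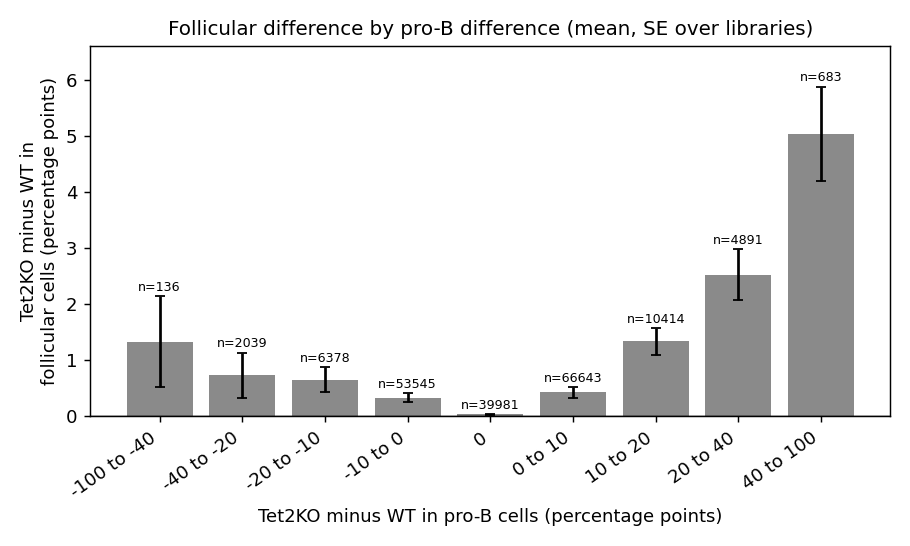
Mean follicular difference, Tet2KO minus WT (percentage points), of member tiles grouped by their pro-B difference; bars are means over tiles, error bars the SE over 3 Tet2KO and 3 WT follicular libraries, and n is the number of tiles. The bars climb to 5.03 points at the right, where pro-B Tet2KO was higher by 40 to 100 points. At the left they reach 1.33 points (SE 0.810), with overlapping groups, and none falls below 0.

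Tiles near a raised tile were higher as well. In pro-B libraries the difference was 33.4 points at the raised tiles themselves, 10.4 points at tiles starting 100 bp away, 6.59 points at 200 bp, 3.82 points at 300 to 500 bp and 1.76 points at 2100 to 5000 bp. Neighbouring tiles can share reads, and some of these tiles were raised tiles too, 206 of 1669 at 100 bp and 34 of 1003 at 300 to 500 bp. Without raised tiles the pro-B difference was 6.86 points at 100 bp, 4.82 at 200 bp, 2.78 at 300 to 500 bp and 1.15 points at 2100 to 5000 bp, against 1.03 points over all members. In follicular libraries the difference was 3.05 points at the raised tiles, 2.82 points at 100 bp, 2.65 points at 200 bp, 1.82 points at 300 to 500 bp and 0.780 points at 2100 to 5000 bp, with no overlap of the groups at these distances, and without raised tiles 2.41, 2.48, 1.65 and 0.731 points at the last 4 distances, against 0.448 points over all members. Around lowered tiles the pro-B difference was -30.1 points at the tiles, -2.38 points at 100 bp and 1.04 points at 200 bp. Near raised tiles, with these left out, the pro-B difference was 2.59 points at 600 to 1000 bp and 1.80 points at 1100 to 2000 bp. The follicular difference there was 1.22 and 0.927 points. Differences near raised tiles thus stood above those of all members at each distance, narrowly so in pro-B libraries at 2100 to 5000 bp. Without raised tiles, the tiles at 100 and 200 bp had follicular WT means of 53.6 and 43.4%. Members of 20 to 80% over the pro-B libraries differed by 5.65 points in pro-B and 1.84 points in follicular libraries. Against these, the pro-B difference at 200 bp was lower, and that at 100 bp and both follicular differences were somewhat higher. The part of level in the differences near raised tiles was not tested. Around lowered tiles a loss in pro-B cells was seen at the tile and, far smaller, at its direct neighbour.

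**Figure D4:**
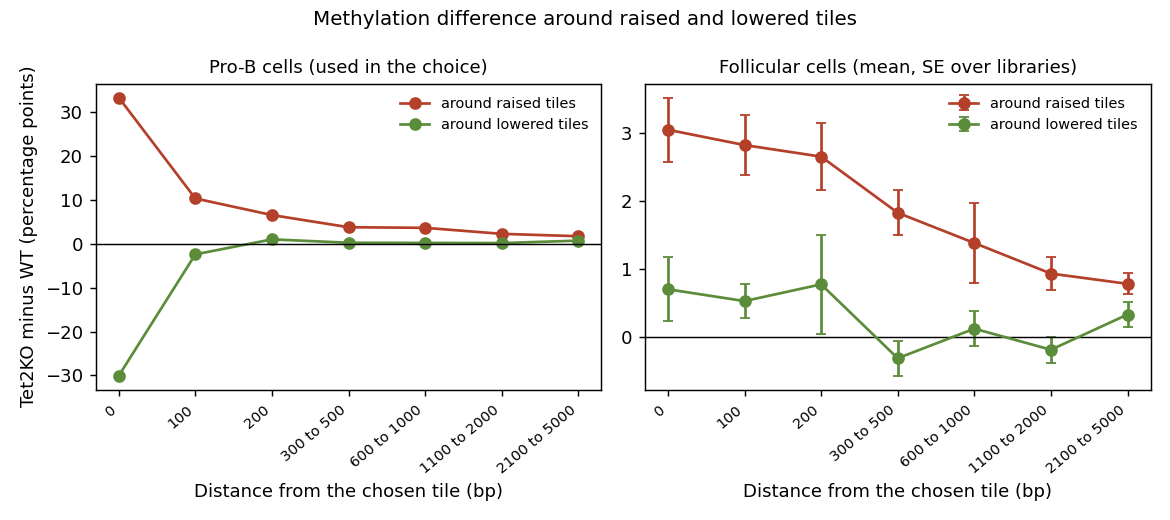
Mean difference, Tet2KO minus WT (percentage points), against distance (bp) from raised tiles (red) and lowered tiles (green), in pro-B libraries (left panel) and follicular libraries (right panel, with the SE over libraries). Around raised tiles both curves stay above 0 out to 5000 bp, and around lowered tiles the pro-B curve returns from -30.1 to 1.04 points within 200 bp.

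Among the 11 regions of 3 or more raised tiles, the follicular difference was above 0 in 8 and below 0 in 3, with a median of 4.69 points. The groups did not overlap in follicular cells at 2 of them, both higher in Tet2KO. Single tiles were apart in that direction at 4.73% of all members, 8.68% of members of 20 to 80% and 12.3% of raised tiles. The region on chromosome 12 from 43252601 to 43253000 separated by sex in the Tet3KO and DKO libraries, with 83.6 to 95.2% in 3 females and 49.7 to 56.4% in 8 males. No other of the 11 had its females above its males without overlap in those knockouts. On chromosome 17, from 6491701 to 6492200, 4 raised tiles averaged 40.4, 50.9 and 38.0% in pro-B Tet2KO and 7.65, 13.9 and 2.27% in pro-B WT libraries, a difference of 35.2 points (SE 5.19). The follicular libraries had 38.7, 44.5 and 30.2% in Tet2KO and 18.8, 27.5 and 19.8% in WT mice. The level of pro-B Tet2KO was close to that of follicular Tet2KO, and WT libraries were lower at both stages. Pro-B Tet3KO and DKO libraries, which lack Tet3 or both enzymes and share these WT libraries, had means of 1.87 and 12.6% there.

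On chromosome 11, from 8820801 to 8821200, 3 raised tiles averaged 75.6, 68.5 and 52.5% in pro-B Tet2KO and 31.1, 32.8 and 20.5% in pro-B WT libraries, a difference of 37.4 points (SE 7.83). In follicular cells they had 93.0, 73.3 and 73.0% in Tet2KO and 63.0, 58.9 and 68.2% in WT libraries, 16.5 points apart. The groups were apart at both stages. Pro-B Tet3KO and DKO means were 17.7 and 29.4%, and the DKO libraries were far apart, at 59.5, 28.7 and 0%. Follicular Tet3KO and DKO means were 65.3 and 69.3%, against 63.3% in follicular WT. The largest pro-B difference of these regions, 50.5 points (SE 13.8), was on chromosome 1, from 193758001 to 193758300, with 87.9, 76.5 and 43.0% in Tet2KO and 21.4, 21.6 and 12.8% in WT libraries. There the follicular groups overlapped, with 95.6, 65.0 and 62.4% in Tet2KO and 44.7, 64.0 and 74.2% in WT libraries.

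Only 1 region held 3 or more lowered tiles. On chromosome 5, from 111847601 to 111848400, 4 tiles averaged 26.2, 20.1 and 26.4% in pro-B Tet2KO and 49.6, 55.7 and 59.2% in pro-B WT libraries, a difference of -30.6 points (SE 3.50). The follicular libraries had 26.8, 23.1 and 30.2% in Tet2KO and 44.6, 45.3 and 38.8% in WT mice, -16.2 points apart. The lower level of Tet2KO was seen at both stages with no overlap. The tiles of these regions did not pass the limma test singly, with adjusted p-values between 0.629 and 1 over the 12 regions, and the regions were picked after their values were seen.

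Tiles that met the rule of 20 points and no overlap in both stages were counted next. Of the 1833 raised tiles, 57 (3.11%) met it in follicular cells in the same direction and 12 (0.655%) in the opposite one. Over all 184710 members the follicular shares were 0.310% higher, 572 tiles, and 0.0877% lower. Over the 21089 members of 20 to 80% they were 1.78% higher and 0.488% lower, so much of the excess in raised tiles is shared with other tiles of their level. The 57 tiles were 9.97% of the 572 follicular tiles. Some of them followed sex: in Tet3KO and DKO libraries, 3 of the 56 with values in at least 2 females and 4 males (5.36%) were higher in females by 20 points or more without overlap, against 0.161% of all members and 1.46% of raised tiles. These were ranks 7, 28 and 46. Over the 57 tiles Tet2KO exceeded the female follicular WT library by 26.1 points and the male ones by 28.5 points. The rule itself sets these gaps, as it demanded every follicular Tet2KO library above every follicular WT library. Of the 700 lowered tiles, 10 were higher (1.43%) and 2 lower (0.286%) in follicular cells.

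The 57 tiles were ranked by the smaller of their differences in the 2 stages. The leading tile, on chromosome 11 from 80637401 to 80637500, had 71.8, 93.8 and 73.4% in pro-B Tet2KO and 42.3, 22.3 and 14.9% in pro-B WT libraries. In follicular libraries it had 92.6, 88.7 and 48.8% in Tet2KO and 24.7, 33.3 and 30.6% in WT mice. The differences of 53.2 points in pro-B and 47.2 points in follicular cells were of similar size. The follicular DKO and Tet3KO means, 64.2 and 55.6%, were also above every WT library. Pro-B DKO and Tet3KO means were 69.1% (n = 3) and 80.1% (n = 2), so the other knockouts were high there too. Second was a tile on chromosome 15 from 97302801 to 97302900, with 92.9, 100 and 66.7% in pro-B Tet2KO and 41.9, 51.2 and 32.8% in pro-B WT libraries. Its follicular values were lower in both genotypes, 57.9, 20.7 and 62.8% in Tet2KO and 4.35, 9.30 and 3.33% in WT libraries, 41.5 points apart. Follicular Tet3KO and DKO means at this tile were 39.8 and 87.9%. Their pro-B means were both 100%, from 1 Tet3KO and 3 DKO libraries.

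A tile on chromosome 3 from 126649301 to 126649400 had 100, 100 and 85.1% in pro-B Tet2KO and 0, 67.9 and 0% in pro-B WT libraries. Its follicular values were 100, 93.5 and 81.1% in Tet2KO and 38.3, 61.7 and 60.4% in WT libraries, a gap of 38.1 points. The pro-B WT libraries were widely apart at this tile, and the other knockouts had means of 84.3 to 100%. A tile with little spread within groups, picked after its values were seen, was ranked 14, on chromosome 6 from 145275301 to 145275400. All 3 pro-B Tet2KO libraries were at 100%, against 50.0, 54.2 and 36.6% in pro-B WT libraries, and follicular libraries had 75.9, 71.7 and 61.4% in Tet2KO and 40.1, 38.1 and 45.1% in WT mice. Follicular Tet3KO and DKO means were 84.8 and 88.4%, above the follicular Tet2KO mean of 69.7%. The pro-B DKO mean was 100% from 2 libraries, and pro-B Tet3KO had no value. The difference of 53.1 points in pro-B cells had a limma adjusted p of 0.123 in the fit of the pro-B libraries and of 0.00233 in the fit of all 24 (SE 4.56 and 4.90).

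**Figure D5:**
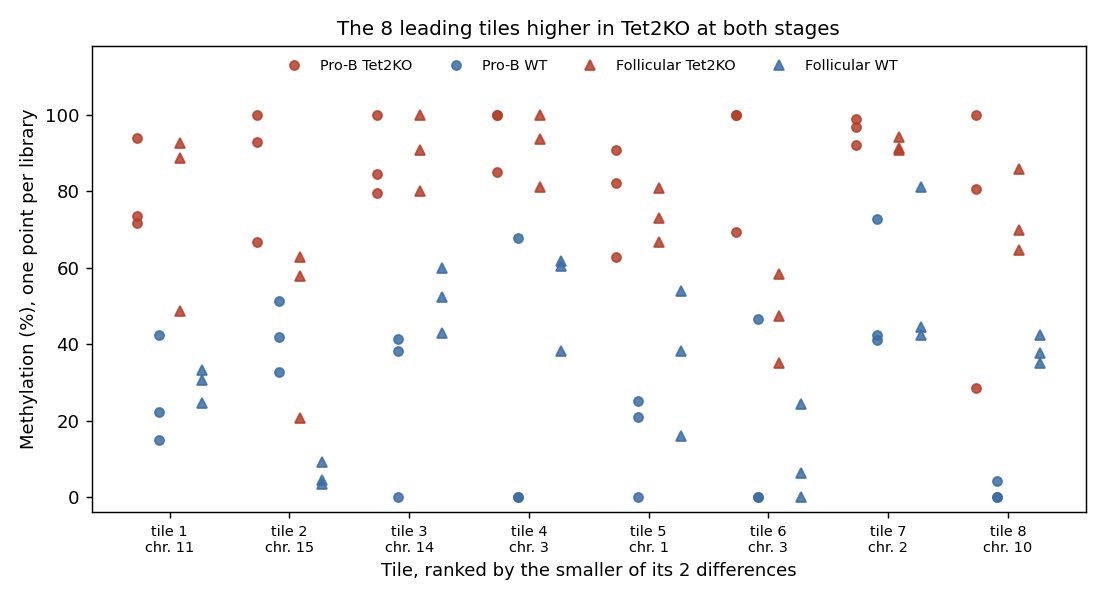
Methylation (%) of every library at the 8 leading tiles that were higher in Tet2KO in both stages, ranked by the smaller of the 2 differences; circles are pro-B and triangles follicular libraries, Tet2KO in red left of WT in blue. The groups are apart by the choice of tiles, tile 7 also separates by sex in the other knockouts, and the spread within a group reaches from 28.6 to 100% in pro-B Tet2KO at tile 8.

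The 2 tiles lower in both stages were on chromosomes 14 and 15. They were 0.286% of lowered tiles, fewer than the 10 that were higher in follicular cells. The same follicular rule was met by 0.0877% of all members and 0.488% of members of 20 to 80%. From 124405801 to 124405900 of chromosome 14, pro-B Tet2KO libraries had 53.9, 66.9 and 40.9%, and all 3 pro-B WT libraries were at 100%. Follicular libraries had 55.2, 59.6 and 64.8% in Tet2KO and 95.2, 89.4 and 95.3% in WT mice. Means of DKO libraries were also below the WT level there, at 41.7% in pro-B and 65.4% in follicular cells, whereas Tet3KO means were 100% in pro-B (1 library) and 97.8% in follicular cells. From 79230901 to 79231000 of chromosome 15, pro-B libraries had 64.3, 69.0 and 67.2% in Tet2KO and 100, 86.5 and 80.4% in WT mice. Its follicular values were 60.0, 63.6 and 45.0% in Tet2KO and 90.5, 82.4 and 76.5% in WT libraries.

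The other knockouts were set beside Tet2KO at the 914 raised tiles with values in 23 libraries, all but the sparse pro-B Tet3KO library 8. Pro-B means were 60.7% ± 0.802 in Tet2KO (n = 3), 45.6% ± 1.89 in Tet3KO (n = 2), 51.9% ± 6.43 in DKO (n = 3) and 30.1% ± 3.83 in WT (n = 3). The Tet3KO and DKO levels lay between those of Tet2KO and WT, as did the follicular WT level of 51.6%. The choice of tiles by far-apart pro-B Tet2KO and WT values favours this for any group outside the choice. At the 277 lowered tiles pro-B means were 43.2% ± 5.77 in Tet2KO, 53.1% ± 2.44 in Tet3KO, 56.3% ± 3.97 in DKO and 71.0% ± 3.13 in WT. The other knockouts and follicular WT, at 57.2%, lay in between there, which the choice favours in the same way. All comparisons share the WT libraries that chose the tiles, so no test is given. In follicular cells the raised tiles had 54.8% ± 0.432 in Tet2KO, 56.3% ± 2.27 in Tet3KO, 57.8% ± 2.30 in DKO and 51.6% ± 0.954 in WT (n = 3 each). The follicular values at lowered tiles were 57.2% ± 0.591 in Tet2KO, 59.3% ± 1.07 in Tet3KO, 59.3% ± 1.79 in DKO and 57.2% ± 0.897 in WT.

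A pro-B library is a bulk of cells, and a level between 0 and 100% can come from a mixture of methylated and unmethylated cells. A change in the share of such cells and a change within each cell cannot be told apart.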

How the data were processed

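RRBS libraries of pro-B and follicular B cells were used, 24 in all, and 16 RNA samples of the series were not used here. The methylation values deposited by the authors are a fraction for each 100 bp tile and library, per the file headers, and hold neither reads nor coverage. The submitters' processing notes name methylKit and Trim Galore and the builds mm9 and hg19. Aligner, conversion rate and minimum coverage are not given in the sources used here. On chromosome 1 the last tile ends at 197193600, which fits mm9, and positions are given in that build. Depth is unknown, so no counting interval is given, and a tile at 0 or 100% can rest on few reads.

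Fractions were multiplied by 100. Limma 3.58.1 (R 4.3.3) was fitted to each tile with a trended prior over the 12 pro-B libraries and 4 genotypes (8 residual degrees of freedom), with Benjamini-Hochberg adjustment over 193623 tiles. A call needed an adjusted p under 0.05 and 20 points. For library means a two-sided exact permutation test was used. The procedure was tested on simulated data. Called tiles within 500 bp were joined and ranked by number of tiles and size for naming, which left 4 tiles. The members and lists were chosen with earlier results of these data known, and the raised and lowered tiles, longer regions and tiles changed in both stages were added after seeing the data.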

Additional observations from a re-analysis of the deposited data

Results flagged for a closer look

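The effect of Tet2KO differed between the stages at 1 of 184710 tiles (0.000541%), by a test of that difference itself. It was lower in pro-B cells there, and at 0 tiles was it higher by the same test. On chromosome 4, from 57796301 to 57796400, pro-B libraries had 35.9, 31.8 and 42.9% in Tet2KO and 97.0, 82.4 and 76.2% in WT mice. Follicular libraries had 96.7, 91.7 and 98.4% in Tet2KO and 56.4, 46.7 and 54.2% in WT mice. Tet2KO was thus lower by 48.3 points in pro-B cells and higher by 43.2 points in follicular cells, with no overlap at either stage. The difference between the effects was -91.5 points (SE 10.2, limma interaction adjusted p = 0.00920 over 24 libraries).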

How the results depend on the processing

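Tile calls moved with nearly every choice. With 2 called higher and 2 lower, counts were 1 and 0 at 30 points, 4 and 6 at 10 points, 52 and 9 with all 24 libraries, 22 and 16 on logit values, 371 and 52 with sex, 0 and 0 with age, with centring, and on tiles with 23 or 24 libraries, and 53 and 25 on tiles with 2 of 3 libraries. The fit of the 6 compared libraries called 2 and 0. Leaving out any 1 of the 6 libraries gave 15 to 42 higher and 4 to 40 lower. The 6 counts lay above 2 in each direction, and each library moved both by over 1.5 times. A prior without trend, a robust prior and leaving out Tet3KO library 8 gave 2 and 2. The effect differed between stages at 3 tiles higher and 6 lower on logit values, and at 1 and 3 with 12 libraries, against 0 and 1. The follicular difference of the tiles called higher was -0.153 points with centring and -3.97 to 2.71 points without single libraries. Values below 0 came without Tet2KO library 17 or WT library 15, at -2.98 and -3.97. For tiles called lower it was -0.270 points with centring and -2.06 to 1.33 without single libraries, at -2.06 without Tet2KO library 16 and -0.527 without WT library 14. The difference over all members was 1.58 points and over low tiles 0.455 points in 8-week libraries, and without single libraries 0.730 to 1.38 and 0.263 to 0.409 points. The same ranges were 3.04 to 6.34 for intermediate, 0.653 to 1.18 for high, 1.10 to 2.23 for isolated, 0.973 to 1.85 for middle and 0.426 to 0.751 points for dense tiles. The follicular difference was 2.37 to 3.37 points at raised and 0.357 to 1.13 points at lowered tiles without single libraries. Within females it was 2.83 points at raised and 1.38 points at lowered tiles. With 23 libraries it was 3.24 points at raised and 0.0471 points at lowered tiles. No paired analysis was possible because the libraries of the compared groups share no number in the labels. Unknown depth limits each single tile.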

Other observations

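The tiles called by the fit of all 24 libraries were also looked at in follicular cells. The follicular libraries entered that fit through its spread, so they took part in the choice of these tiles. The 52 called higher in pro-B Tet2KO had 77.5% ± 0.986 in follicular Tet2KO and 75.5% ± 0.664 in follicular WT libraries (SD, n = 3 each), 2.01 points apart. The 9 called lower had a follicular difference of 6.24 points, which rests on the tile on chromosome 4 whose effect differed between the stages: without it the mean over 8 tiles was 1.63 points, and the median over the 9 was 0.960 points. Of the tiles called by that fit, 2 higher and 1 lower were also called in the pro-B libraries alone. A tile on chromosome 14, from 34003201 to 34003300, was picked from these after its values were seen. It had 50.1, 70.9 and 48.4% in pro-B Tet2KO and 12.7, 0 and 7.81% in pro-B WT libraries, a difference of 49.6 points (SE 8.09, limma adjusted p = 0.0355 in that fit). In follicular cells it had 5.14, 10.3 and 7.55% in Tet2KO and 1.92, 1.53 and 0.709% in WT libraries, and the DKO means there were 94.4% in pro-B and 85.5% in follicular cells.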
